A study of Mus musculus with 6 samples.

Results

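The interleukin-1 family comprises secreted cytokines that start and shape inflammation, together with the receptors and soluble inhibitors that limit them. The 10 genes described here were chosen by name: the ligands Il1a, Il1b, Il18 and Il33, the receptor antagonist Il1rn, the binding protein Il18bp, and the receptor genes Il1r1, Il1r2, Il1rap and Il1rl1. The group was put together with the difference between miR-34a and vector arrays in view, namely that Il1a is lower and Il18 higher in miR-34a samples. The values of the 10 genes in that comparison are therefore given as a description, with no p-value, and nothing is supported by whether they passed the test run across all genes. Of the 10 genes, 9 had a probe set annotated to their symbol alone, among 12393 genes measured in this way. No probe set was annotated to Il1rl1, the receptor of interleukin-33, so it has no value here.

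Interleukin-1 alpha and interleukin-1 beta bind the same receptor, encoded by Il1r1, which signals together with the accessory protein encoded by Il1rap. The antagonist encoded by Il1rn occupies that receptor without signalling, and Il1r2 encodes a decoy receptor that binds ligand and does not signal. Interleukin-1 beta and interleukin-18 are made as precursors that are cut by caspase-1 in inflammasomes, whereas interleukin-1 alpha and interleukin-33 act as alarm signals of damaged cells. In tumours these cytokines come from cancer cells as well as from macrophages, fibroblasts and other host cells.

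The series holds 6 Affymetrix arrays of biotin-labelled RNA from 344SQ, a metastatic mouse lung cancer line with high Zeb1 that the labels call a KP line. One group of 3 carried a control vector and the other group of 3 carried inducibly expressed miR-34a, so both groups share the cell line and differ in the construct. The sources used here do not give the inducer, the promoter of the construct, or whether each line was 1 clone. The labels disagree on the material, with tumours grown in mice named in the design text and in the miR-34a titles, and cultured cells named in other fields.

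Array medians of the deposited intensities ran from 466.7 to 484.2. Vector 1 stood apart from its group: across genes, which are not independent replicates, its Pearson's r was 0.969 and 0.972 with vector 2 and vector 3, against 0.993 between those 2 arrays and 0.992 to 0.996 among the miR-34a arrays. The labels do not state whether the 3 arrays of a group stem from separate mice or cultures, so errors and p-values reflect the spread among these arrays alone, and that spread could be technical. In RNA of whole samples, fewer cells of a type and less RNA per cell cannot be told apart. The lowest intensity on the 6 arrays was 186.9 among 8 epithelial marker genes and 186.8 among 8 fibroblast marker genes. Each of these is the value of a single gene on a single array, so neither can serve as a check of the epithelial origin of the line.

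The agent in this study was miR-34a, whose mature mouse sequence in RefSeq (chr4:150068473-150068494, plus strand, GRCm38.p6) is shown because it is what separates the groups. Capitals mark the seed, bases 2 to 8, with which a microRNA pairs to its targets.
mmu-miR-34a-5p: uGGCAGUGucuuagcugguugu

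The promoters of the pair of neighbouring ligand genes Il1a and Il1b, which were both lower in miR-34a samples, and of Il18, which was higher, are printed next for comparison. Each RefSeq window in build GRCm38.p6 runs from 250 bases before to 50 bases after the annotated start, 5′ to 3′ along the gene. The windows are chr2:129309923-129310222 (minus strand) for Il1a, chr2:129371090-129371389 (minus strand) for Il1b and chr9:50554450-50554749 (plus strand) for Il18. Capitals mark matches on either strand to TATAAA, the core of a TATA box, to TGANTCA, the AP-1 motif, and to a loose form of the NF-kB motif, GGG and CC with any 5 bases between them.
Il1a: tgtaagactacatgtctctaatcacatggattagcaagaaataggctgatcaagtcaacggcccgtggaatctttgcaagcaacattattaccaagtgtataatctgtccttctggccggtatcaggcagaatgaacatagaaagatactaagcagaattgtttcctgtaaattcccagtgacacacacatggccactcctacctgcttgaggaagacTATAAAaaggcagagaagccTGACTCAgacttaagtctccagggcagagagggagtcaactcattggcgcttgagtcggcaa
Il1b: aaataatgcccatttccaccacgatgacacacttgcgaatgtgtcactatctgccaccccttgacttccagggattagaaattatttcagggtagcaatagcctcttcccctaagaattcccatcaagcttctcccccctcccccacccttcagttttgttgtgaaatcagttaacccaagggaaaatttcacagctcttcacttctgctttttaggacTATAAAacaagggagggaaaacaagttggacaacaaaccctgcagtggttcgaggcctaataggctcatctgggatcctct
Il18: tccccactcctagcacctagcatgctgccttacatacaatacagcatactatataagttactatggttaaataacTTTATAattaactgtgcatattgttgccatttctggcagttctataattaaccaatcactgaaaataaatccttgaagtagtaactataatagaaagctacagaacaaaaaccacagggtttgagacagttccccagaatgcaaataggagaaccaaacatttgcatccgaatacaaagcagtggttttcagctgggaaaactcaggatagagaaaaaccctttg

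Il1a and Il1b each have TATAAA on the gene strand, beginning 32 and 31 bases before the start. Such a match within the 50 bases before the start was found in 2.63% of 32851 promoter windows. Il18 has TATAAA on the opposite strand, beginning 175 bases before the start, and TATAAA anywhere on either strand was found in 13.6% of windows. The window of Il1a also holds TGANTCA 12 bases before the start, a motif found in 7.81% of windows. None of these 3 windows holds the loose NF-kB motif, which 50.8% of windows have. These matches describe the letters of the windows only, and no 2 of them overlap.

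Among the ligands, Il1a differed most between the groups: it was 3.72-fold lower in miR-34a samples, Il1b was 1.31-fold lower and Il18 was 1.42-fold higher. The values of these 3 genes did not overlap between the groups. Over all genes the groups did not overlap for 34.9%, so nothing is read from this. Values are on the log2(intensity + 16) scale, which understates the change of dim genes, and changes are miR-34a minus vector.

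Il1a, the alarm-type ligand, read 9.90, 8.14 and 8.14 on vector 1, vector 2 and vector 3, and 6.67, 7.12 and 6.71 on the miR-34a arrays. The deposited intensities behind these are 939, 266 and 265 for vector and 85.9, 123 and 88.5 for miR-34a. Every vector array lay above every miR-34a array, and vector 1 was far above the other two. The change was -1.89 ± 0.459 (SE; 3 arrays per group), and -1.31 without vector 1, with group means of 8.72 ± 1.02 and 6.83 ± 0.248 (SD, n = 3). All 3 miR-34a values lay below the lower quartile of their array, which ran from 7.51 to 7.59 over the 6 arrays, while the vector values lay above it. The size also moved with the pseudocount, to -2.04 with 1 and -1.56 with 64. Leaving out single arrays gave changes of Il1a between -2.19 and -1.31.

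On vector 1 the summed intensity of 10 neutrophil marker genes was 10939, against 4442 and 4003 on vector 2 and vector 3 and 3038 to 3413 on the miR-34a arrays. The order of these sums therefore followed Il1a in having vector 1 highest and the miR-34a arrays lowest. On vector 1 that sum came mostly from S100a8 and S100a9, the genes of calprotectin. Both are also on the list of interleukin-1 and NF-kB response genes described below. Mpo, Elane and Mmp8 lay below the lower quartile on all 6 arrays. Of the 10 markers, 4 changed above 0 and 6 below 0, with a median of -0.083, or 0.0064 without vector 1. The sums thus follow these calprotectin genes more than the list as a whole. The part of neutrophils in the difference of Il1a was not tested.

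Il1b, the ligand activated by caspase-1, read 10.55, 10.28 and 10.22 on the vector arrays and 9.82, 10.02 and 10.04 on the miR-34a arrays. The lowest vector array stood 0.18 above the highest miR-34a array. This gap was smaller than the range of values within either group, 0.33 in vector and 0.22 in miR-34a. Its change was -0.39 ± 0.115 (SE), and lay between -0.45 and -0.29 in the fits without 1 array. Although Il1a and Il1b are neighbours on chromosome 2, the change of Il1a was the further from 0, and the change of Il1a less that of Il1b was -1.504.

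Il18, the other caspase-1 substrate among the ligands, read 9.61, 9.30 and 9.54 on the vector arrays and 10.03, 9.94 and 10.01 on the miR-34a arrays. The miR-34a values were tightly grouped, and all lay above the highest vector value by at least 0.33. Its change was 0.51 ± 0.101 (SE), from deposited intensities of 612 to 763 in vector and 963 to 1029 in miR-34a. Leaving out vector 1 gave 0.57 and leaving out vector 2 gave 0.42, the lowest of the 6 fits.

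Il18bp encodes a soluble protein that captures interleukin-18 and is itself induced by interferon gamma. It read 7.93, 8.76 and 9.15 on the vector arrays and 9.62, 8.998 and 9.03 on the miR-34a arrays. The groups overlapped, since vector 3 lay above 2 of the miR-34a arrays, and vector 1 was the low array. The change of 0.61 ± 0.318 (SE) became 0.26 without vector 1 and 0.87 without vector 3. Vector 1 was also the low array for macrophage and fibroblast marker genes. Their summed intensities there were 13840 and 11173, against at least 24959 and 31182 on the other 5 arrays. Which cells gave these sums, and the part of such cells in Il18bp, was not tested. The change of Il18 less that of Il18bp was -0.095, a value that depended on the arrays. Without vector 1 the changes were 0.57 for Il18 and 0.26 for Il18bp, and without vector 3 they were 0.54 and 0.87.

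Il33 encodes a nuclear alarm cytokine of epithelial, endothelial and stromal cells. It read 12.23, 12.01 and 11.33 on the vector arrays and 11.56, 11.61 and 11.35 on the miR-34a arrays. Here vector 3 lay below each miR-34a array, while vector 1 and vector 2 lay above them, so the groups overlapped. The change of -0.35 ± 0.222 (SE) ran from -0.62 without vector 3 to -0.17 without vector 1.

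**Figure D1:**
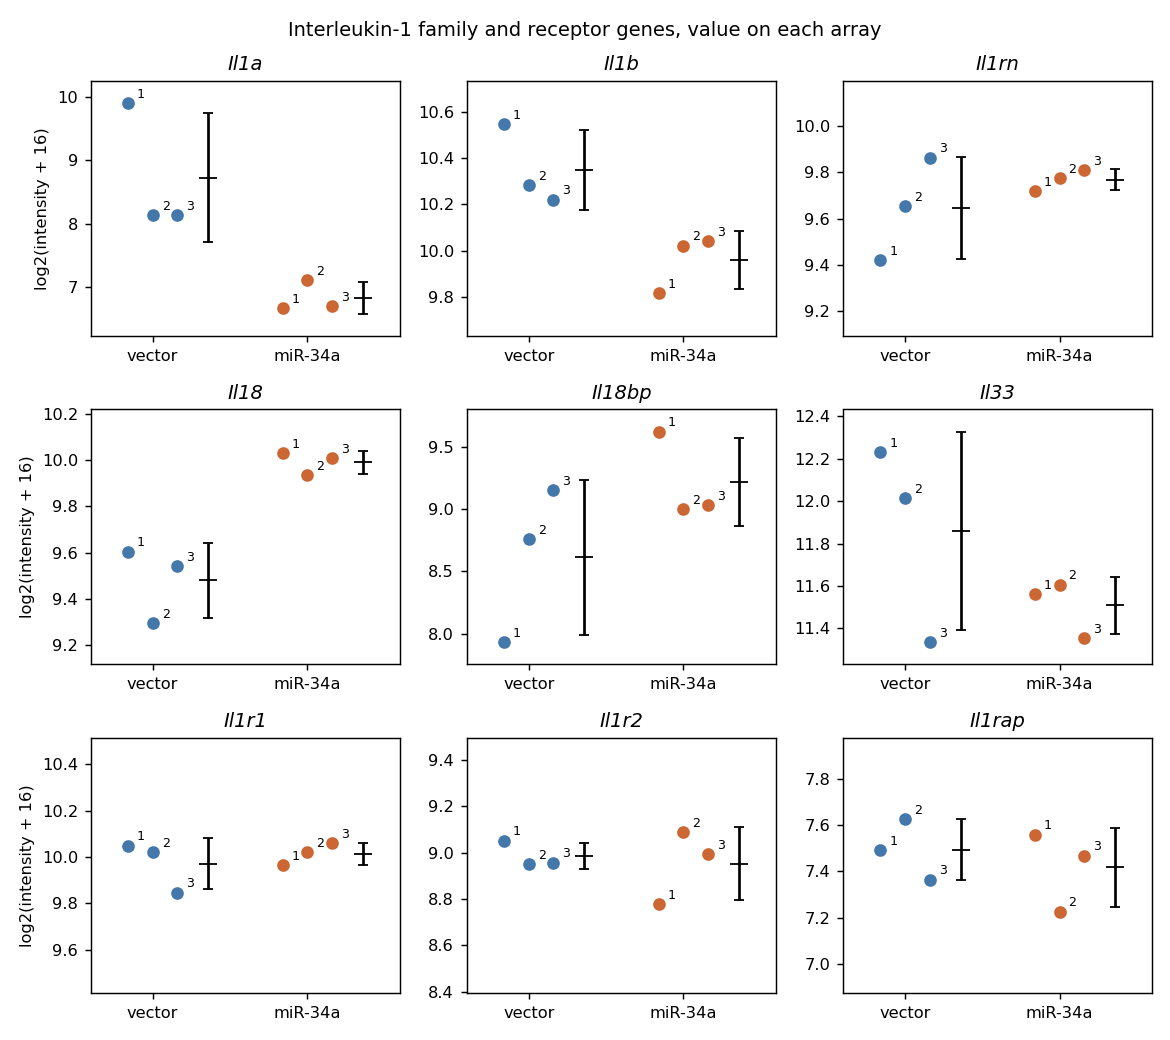
Value of the main probe set of each of the 9 measured genes on each array, as log2(intensity + 16), with the vector arrays in blue and the miR-34a arrays in orange; numbers are replicate numbers, the bar is the group mean ± SD (n = 3), and each panel has its own axis. The groups are separate for Il1a, Il1b and Il18 and overlap for the other 6 genes, where 34.9% of all genes have separate groups.

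The receptor side and the antagonist showed little difference, with changes under 0.2 in size for Il1rn, Il1r1, Il1r2 and Il1rap. Il1rn, the natural inhibitor of interleukin-1 signalling, read 9.42, 9.65 and 9.86 on the vector arrays and 9.72, 9.78 and 9.81 on the miR-34a arrays. The miR-34a values fell inside the vector range. Its change was 0.12 ± 0.12 (SE) at the main probe set and 0.13 at each of 2 further probe sets. Without vector 1, the lowest array for Il1rn, the main probe set changed by 0.0088.

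Il1r1, the signalling receptor, read 10.05, 10.02 and 9.85 on the vector arrays and 9.96, 10.02 and 10.06 on the miR-34a arrays, a change of 0.042 ± 0.0868 (SE). The decoy receptor Il1r2 read 9.05, 8.95 and 8.96 on the vector arrays and 8.78, 9.09 and 8.99 on the miR-34a arrays, a change of -0.033 ± 0.101 (SE). The groups overlapped for both genes. The sign turned for Il1r1 without vector 3, at -0.021, and for Il1r2 without miR-34a 1, at 0.054. They stand beside each other on chromosome 1, at the end of a run of receptor genes that continues with Il1rl2, Il1rl1, Il18r1 and Il18rap.

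Il1rap, the accessory chain shared by the interleukin-1 and interleukin-33 receptors, had 3 probe sets that did not go the same way. The main one read 7.49, 7.63 and 7.36 on the vector arrays and 7.56, 7.23 and 7.47 on the miR-34a arrays, a change of -0.076 ± 0.116 (SE). The other 2 changed by -0.16 and 0.17. The gene was dim, with 2 vector and 2 miR-34a values below the lower quartile of their arrays.

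**Figure D2:**
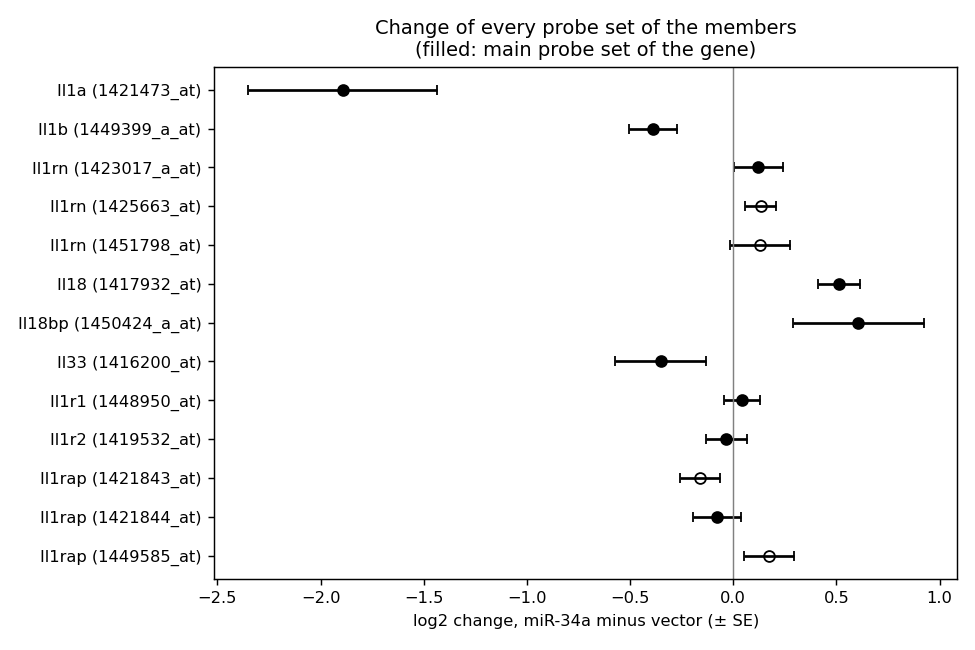
Change of all 13 probe sets of the 9 measured genes, in log2 units as miR-34a minus vector, with bars for the standard error; filled circles are the main probe set of each gene. Il1a lies at -1.89, Il18 at 0.51, and the probe sets of Il1rn, Il1r1, Il1r2 and Il1rap lie within 0.2 of 0.

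Of the 9 measured genes, 2 passed the threshold of the test across all genes (limma with Benjamini-Hochberg adjustment over 12393 genes, adjusted p under 0.05), where 11.7% of all genes passed. They were Il1a as lower (5.25% of all genes) and Il18 as higher (6.5% of all genes), the pair for which the group was chosen, so nothing is read from the count. The groups did not overlap for 3 of the 9 genes, against 34.9% of all genes. Changes were below 0 for 5 genes and above 0 for 4, with a median of -0.033 beside 0.024 over all genes. Of the 6 fits without 1 array, Il1a and Il18 each passed in 2, those without vector 1 or vector 2, and Il33 passed in 1, that without vector 3. Of the 12393 genes, 2133, 1256 and 631 passed without vector 1, vector 2 and vector 3, and nothing is read from these passes either.

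**Figure D3:**
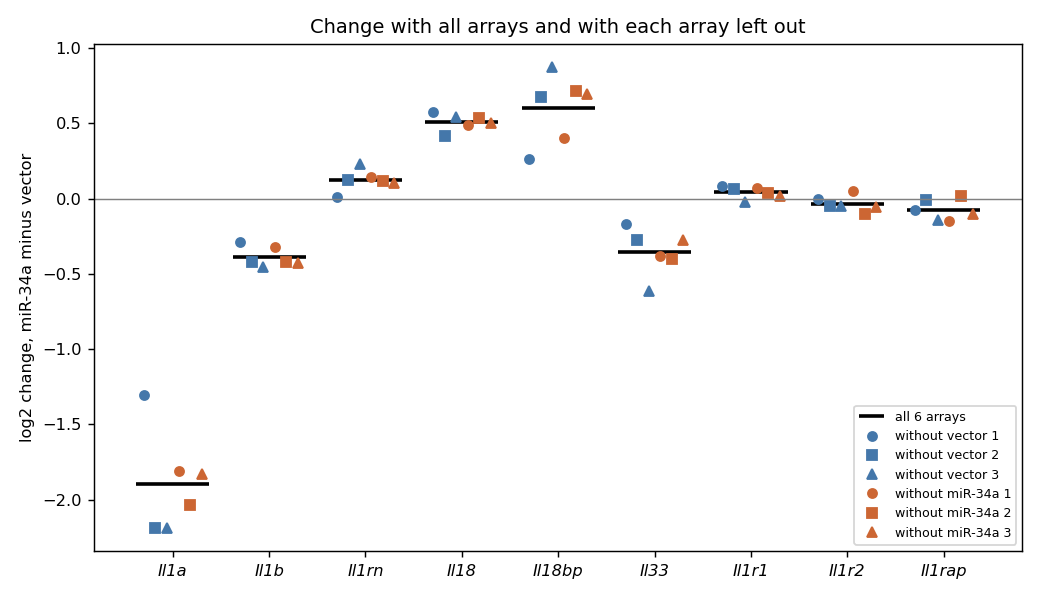
Change of each measured gene, in log2 units as miR-34a minus vector, with all 6 arrays (black line) and with each array left out in turn (symbols). The change of Il1a is -1.31 without vector 1 and between -2.19 and -1.81 in the other 5 fits, and that of Il18 stays between 0.42 and 0.57.

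The rest of the pathway was described with 5 further lists, whose genes were tested in the same fit across all genes. These lists, and the marker lists further below, were chosen with earlier results of these data known. Their counts therefore describe the listed genes only. Listed genes with no probe set of their own, such as Irak4, Chuk, Nfkb1, Nlrc4 and Gsdmd, have no value here. Remaining members of the family came first. Of 10 measured genes of other ligands and receptors, 0 passed the limma test in either direction, against 11.7% of all genes. Counts at an unadjusted p under 0.05, here and below, have no share of all genes beside them, so nothing is read from them. In this list 1 gene met that cut. That gene was Il18rap, the accessory chain of the interleukin-18 receptor, at 8.43, 8.24 and 8.56 on the vector arrays and 8.07, 7.86 and 8.03 on the miR-34a arrays. Its change was -0.42 ± 0.11 (SE; limma adjusted p = 0.051), the groups did not overlap, and it passed without vector 2 and under some other settings. Il18r1, the ligand-binding chain, changed by 0.22 ± 0.402 with overlapping groups, by 0.69 without vector 1 and by -0.14 without vector 2. The change of Sigirr, an inhibitory receptor of the family, was -0.29, and -0.14 without vector 1. That of Il1f9, an interleukin-36 ligand gene, was -0.17, and -0.11 without vector 1. Il1rapl2 changed by -0.12, by -0.0019 without vector 1, and by 0.030 at another probe set. The list had a median of 0.0096, against 0.024 for all genes, and between -0.079 and 0.030 in the fits without 1 array.

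Downstream of the receptor, 6 of 21 measured signalling genes passed the limma test (28.6%, against 11.7% of all genes). Of these, 5 were higher (6.5% of all genes) and 1 was lower (5.25% of all genes). Relb, an NF-kB subunit, rose by 0.73 ± 0.108 (SE; adjusted p = 0.0107), and Rela, the main activating subunit, rose by 0.49 ± 0.0878 (adjusted p = 0.0184). Mapk14, the p38 alpha kinase, rose by 0.60 ± 0.0901 at its main probe set, but 3 others ran from -0.28 to 0.026, and it did not pass with the mean of all its probe sets. Ube2n, a ubiquitin-conjugating enzyme that acts with Traf6, fell by 0.37 (adjusted p = 0.0207). Outside the naming rule, and picked after their values were seen, Tollip, an adaptor that dampens signalling, rose by 0.53, with another probe set at -0.16, and Ube2v1, the partner of Ube2n, rose by 0.48. Myd88, the adaptor of the signalling receptors of the family, changed by 0.013 ± 0.078. The median of the list was 0.10.

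These calls varied with the array left out, and so did the calls over all genes. Of the 12393 genes, 1456 passed in either direction with all arrays. Passes numbered 2133, 1256 and 631 without vector 1, vector 2 and vector 3. Without miR-34a 1, miR-34a 2 and miR-34a 3 there were 255, 667 and 226. The changes of the 6 signalling genes kept their sign in these fits, at 0.64 to 0.80 for Relb and 0.43 to 0.54 for Rela. Higher signalling genes numbered 2 if vector 3 was left out, and 0, 3 and 1 if miR-34a 1, miR-34a 2 or miR-34a 3 was left out in its place. They numbered 3 with the mean of all probe sets. Lower ones numbered 2 without vector 1 and 0 without vector 3 or any of the miR-34a arrays. Relb lost its call without miR-34a 1 or miR-34a 3, Mapk14 if miR-34a 1 was left out, and Rela if vector 3, miR-34a 1 or miR-34a 3 was. Ube2n, Tollip and Ube2v1 passed only when vector 1 or vector 2 was the array left out.

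Among 16 measured genes of inflammasomes and of cytokine processing, Casp1 rose and Casp8 fell. Casp1, the protease that matures interleukin-1 beta and interleukin-18, read 7.40, 7.77 and 8.30 on the vector arrays and 9.51, 9.26 and 9.52 on the miR-34a arrays. Each miR-34a array stood well above the highest vector array. This is a 3.04-fold rise, 1.605 ± 0.218 in log2 (SE; limma adjusted p = 0.00846), and 1.39 without vector 1. Casp8, a caspase of death receptor signalling that can also cut interleukin-1 beta, fell by 0.73 ± 0.112 (adjusted p = 0.0119). Casp1 lost its call without miR-34a 1 or miR-34a 3, and Casp8 without miR-34a 3. With 1 gene higher and 1 lower, 12.5% of the list passed against 11.7% of all genes, and its median was 0.056, between 0.012 and 0.12 in the fits without 1 array. Other values were 0.31 for Casp4, the non-canonical inflammasome caspase, 0.30 for Pycard, the inflammasome adaptor, and -0.056 for Nlrp3, the sensor, none of which passed; without vector 1 Casp4 did. Macrophages are known to make caspase-1, and summed macrophage markers ran from 13840 to 25862 in vector and from 26164 to 30461 in miR-34a arrays. The part of macrophages in the rise of Casp1 was not tested.

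On the list of genes known to respond to interleukin-1 and NF-kB, more genes passed as lower than as higher. Of 35 measured genes, 6 passed as lower (5.25% of all genes) and 1 as higher (6.5% of all genes). In either direction 20.0% of the list passed, against 11.7% of all genes. The median was -0.24, or -0.15 without vector 1. As the list was chosen with earlier results of these data known, these counts describe the listed genes only. Cxcl2, a neutrophil chemokine, fell by 1.22 ± 0.139 (SE; limma adjusted p = 0.00596), and Tnfaip2, an NF-kB target, fell by 0.87 ± 0.145 at its main probe set, had -0.21 at another, and lost its call if miR-34a 1 or miR-34a 3 was left out. S100a9, a subunit of calprotectin, read 12.37, 10.45 and 9.79 on the vector arrays and 8.06, 7.66 and 7.95 on the miR-34a arrays. Its change was -2.98, and -2.23 without vector 1. Icam1, the leukocyte adhesion molecule, was the one higher gene, at 2.05 ± 0.128 (SE; adjusted p = 0.0014), and it and Cxcl2 kept their calls in each of the 6 fits without 1 array.

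The other 3 lower genes were picked after their values were seen. Il6, the interleukin-6 gene, read 7.26, 8.65 and 8.15 on the vector arrays and 6.78, 6.62 and 6.69 on the miR-34a arrays, a change of -1.32, and of -1.70 without vector 1. The value on vector 1 and those on all miR-34a arrays lay below the lower quartile of their arrays, so the size rests on dim values. Cxcl5, a neutrophil chemokine, fell by 3.22, with changes from -3.89 without vector 3 to -2.38 without vector 1. Nfkbiz, an inducible co-regulator of interleukin-6, fell by 0.90, with another probe set at -0.27. Of the array patterns, that of Cxcl5 and S100a9 had vector 1 highest, as for Il1a, whereas Il6 had vector 1 as the lowest vector array. Lower genes of this list numbered 9 without vector 1, 4 without vector 2 or vector 3, 1 without miR-34a 1 or miR-34a 3 and 3 without miR-34a 2. Over all genes, passes in either direction moved too, from 2133 without vector 1 to 255 without miR-34a 1 and 226 without miR-34a 3. S100a9 lost its call without any 1 of the miR-34a arrays. The calls of Cxcl5 and Il6 were lost without vector 2 or any 1 miR-34a array, that of Il6 also without vector 3, and that of Nfkbiz if vector 3, miR-34a 1 or miR-34a 3 was left out.

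Responses typical of interleukin-18 and interleukin-33 gave 0 genes past the limma test among 14 measured, against 11.7% of all genes. At an unadjusted p under 0.05 there were 2, Il12rb1 and Stat4, a count with no share of all genes beside it, from which nothing is read. The median of the list was 0.0064, between -0.033 and 0.025 in the fits without 1 array. Il12rb1, a receptor chain for interleukin-12, changed by -0.32 and passed without vector 2, and Stat4, its transducer, changed by -0.24, while Gzmb, a cytotoxic granule protease, changed by 0.19. Ccl1, a chemokine, changed by 0.27, or by 0.17 without miR-34a 3. Of these 14 genes, 5 lay below the lower quartile on all 6 arrays, Ifng, Il12rb2, Il4, Gata3 and Il2ra, so a change in them could hardly be seen.

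**Figure D4:**
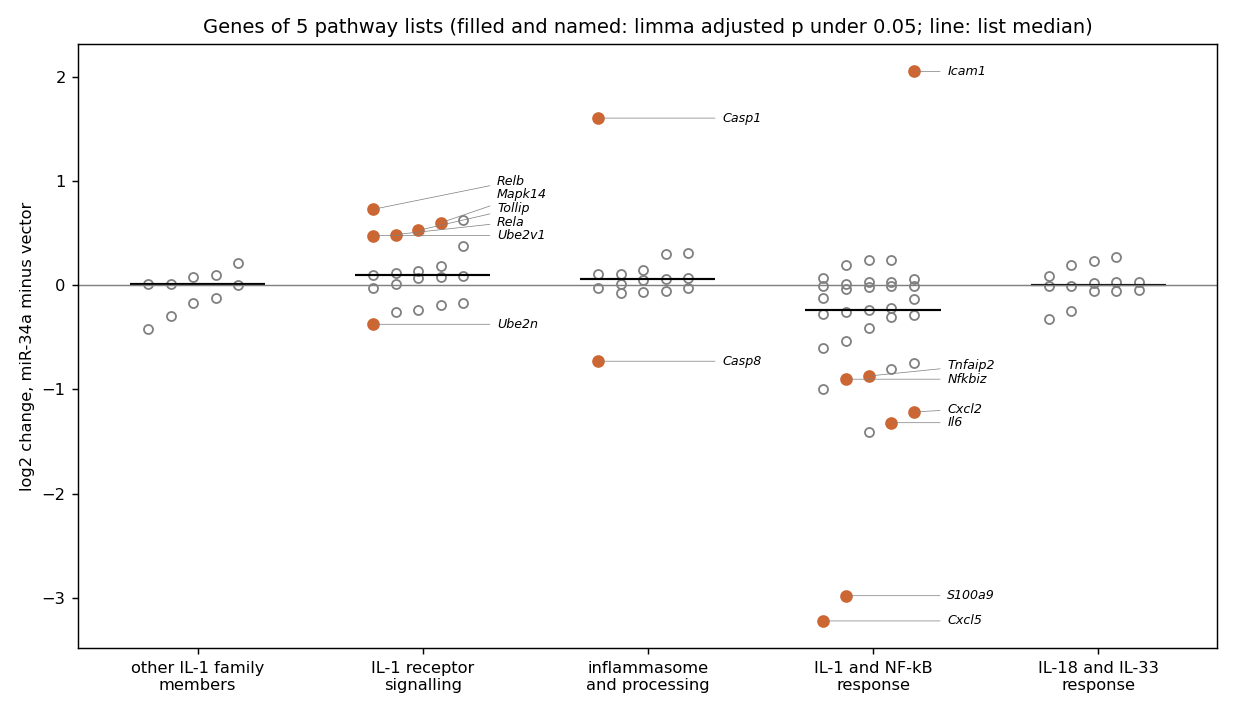
Change of each measured gene in 5 pathway lists, in log2 units as miR-34a minus vector; filled and named circles passed limma at an adjusted p under 0.05, open circles did not, and the black line is the list median. Casp1 at 1.605 and Icam1 at 2.05 stand above the rest, and S100a9 and Cxcl5 near -3 below it.

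Marker genes of cell types that make or receive these cytokines were summed on each array. The counts of markers past the limma test stand against 6.5% of all genes higher and 5.25% lower. No marker was at 0, and the lowest value of the whole table is 1. Mast cells, which carry the interleukin-33 receptor, had 4 of 8 markers higher (6.5% of all genes), with sums of 1466 to 1741 in vector and 3765 to 5810 in miR-34a and a list median of 1.53. These were Tpsb2, Cma1, Cpa3 and Fcer1a, at 3.53, 2.93, 2.65 and 1.93, each kept in all 6 fits without 1 array. All of them lay below the lower quartile on each vector array, and Fcer1a also on miR-34a 2 and miR-34a 3. The sizes of these changes therefore rest on dim values. Ms4a2 lay below the lower quartile on all arrays. Another probe set of Tpsb2 changed by 0.10. Macrophages had 2 of 11 higher (6.5% of all genes), the Fc receptor Fcgr1 at 0.98 and the complement gene C1qb at 1.13, and 1 lower (5.25% of all genes), the mannose receptor Mrc1 at -0.99, with a median of 0.54, or 0.23 without vector 1. The complement gene C1qa changed by 0.83 and did not pass. It passed without vector 1, at 0.49, or without vector 2, at 1.08. Fcgr1 passed without vector 1 or vector 2, and C1qb without vector 1. The neutrophil list had S100a9 as its 1 lower gene of 10 (5.25% of all genes), lost without any 1 miR-34a array, and a median of -0.083, or 0.0064 without vector 1. The change of S100a8 was -1.41 and did not pass, and without vector 1 it was -0.68 and passed. Mmp8 changed by -0.29 and Camp by -0.18, and without vector 1 by -0.013 and -0.11, none past the test.

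T and NK cell genes had 1 of 10 higher (6.5% of all genes), the costimulator Icos at 0.45, with a median of 0.30 and sums of 3623 to 4129 in vector and 4191 to 4598 in miR-34a. Another Icos probe set changed by -0.0024, and Icos passed only without vector 1 or vector 2 among the fits that left out 1 array. The T cell receptor chains Cd3d and Cd3g changed by 0.48 and 0.50 and the NK receptor Klrd1 by 0.57, none past the test. Without vector 1 these were 0.34, 0.31 and 0.27. Fibroblast genes had 1 of 8 higher (6.5% of all genes), Thy1 at 1.73, with a median of 0.72 that became 0.22 without vector 1. Their sums were 11173 to 40551 in vector and 32735 to 46533 in miR-34a, and Thy1 passed without vector 1 or vector 2 and not without any other array. Dcn, Col1a2 and Pdgfra, a matrix proteoglycan, a collagen and a growth factor receptor, changed by 0.82, 0.92 and 0.78 without passing, and by 0.36, 0.36 and 0.33 without vector 1. Another Pdgfra probe set changed by -0.032, and another of Col1a2 by 0.80. Epithelial genes had 1 of 8 higher (6.5% of all genes), the tight junction gene Ocln at 1.98, with a median of 0.065, or 0.022 without vector 1, and sums of 68794 to 80542 in vector and 73220 to 77527 in miR-34a. The claudins Cldn4 and Cldn7 changed by -0.30 and -0.15 and the keratin Krt19 by -0.23, and by -0.20, -0.065 and -0.0049 without vector 1.

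Endothelial genes had 0 of 8 past limma, against 11.7% of all genes. At an unadjusted p under 0.05 there were 2, Emcn at -0.25 and Tek at 0.23. Counts at that cut have no share of all genes beside them, so nothing is read from them. Kdr changed by 0.19, or 0.12 without vector 1, and Pecam1 by -0.28, or -0.17 without vector 2. The list's median was 0.047, between -0.11 and 0.22 in the fits without 1 array, and sums were 4102 to 7703 in vector and 5594 to 6075 in miR-34a. Keratinocyte genes had 0 of 7 past limma, against 11.7% of all genes, and 0 at an unadjusted p under 0.05. Their median was -0.097, between -0.16 and -0.017 in the fits without 1 array, with sums of 3243 to 5209 in vector and 3160 to 3563 in miR-34a. Ivl, Krt14 and Sprr1b changed by -0.29, -0.43 and -0.57, and without vector 1 by -0.13, -0.16 and -0.15. Other Krt14 probe sets changed by -0.89 and -0.051. Lor changed by 0.16, or 0.059 without miR-34a 3, and its other probe sets by -0.073 and 0.17. The part of any of these cell types in the values of the cytokine genes was not tested.

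**Figure D5:**
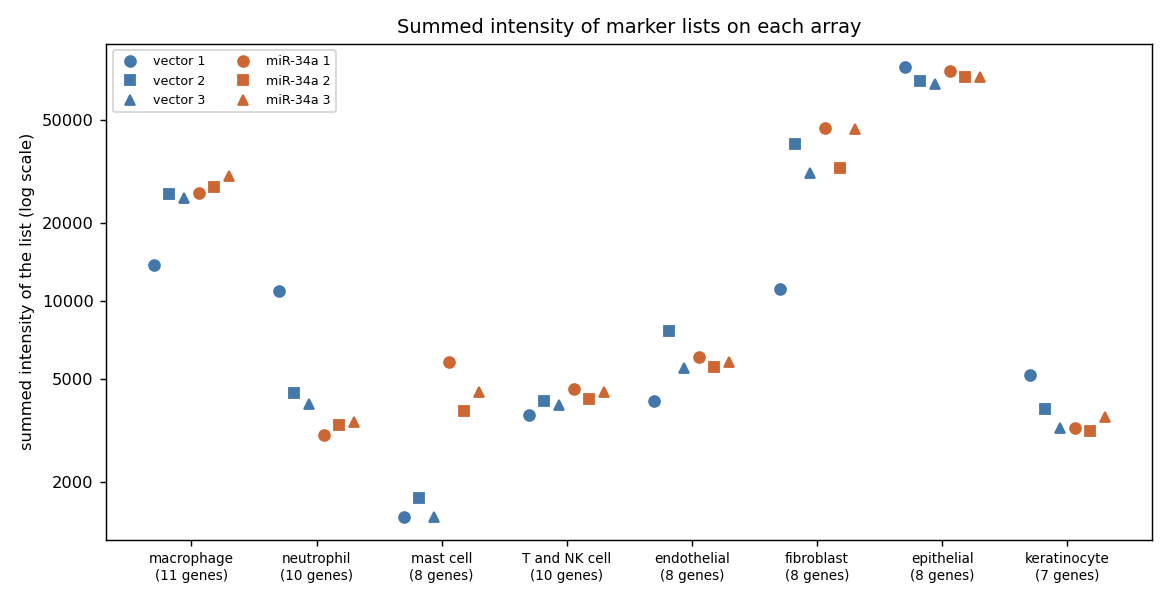
Summed deposited intensity of 8 lists of marker genes on each array, on a log scale, with vector arrays in blue and miR-34a arrays in orange. Vector 1 has the highest neutrophil sum, at 10939, and the lowest macrophage and fibroblast sums, at 13840 and 11173, and the mast cell sums of the miR-34a arrays all exceed those of vector.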

How the data were processed

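RNA of 3 vector and 3 miR-34a samples was hybridised to Affymetrix arrays, per the labels. The authors deposited linear intensities for 22690 probe sets in the value table of the series, and how these were summarised and normalised is not given in the sources used here. Array medians were close, so the intensities were taken as scaled, and log2(intensity + 16) was analysed. No detection calls were used, and the number of arrays limits precision.

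Probe sets with 1 symbol in the platform annotation took their current symbol by Entrez number from the RefSeq table of GRCm38.p6, which held 20364 of them, and 29 kept the older symbol. Of all probe sets, 64 were controls and stayed out. The probe set with the highest mean log2 value stood for its gene (12393 genes from 20380 probe sets). List symbols absent from the table were matched through its synonyms. The test was limma (version 3.58.1, run in R 4.3.3), with lmFit and eBayes on all genes, two-sided, and Benjamini-Hochberg adjustment at 0.05; the code was tested on simulated data. Members and lists were chosen with earlier results of these data known. The text names all members, up to 4 genes per list with the smallest p, and Il18r1, Il18rap, Sigirr, Myd88, Casp1, Pycard and Nlrp3. Figures were drawn with matplotlib 3.10.9.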

Additional observations from a re-analysis of the deposited data

How the results depend on the processing

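Alternatives were quantile normalization, median centring, pseudocounts of 1 and 64, leaving out the dimmest 25% of genes, the mean of all probe sets, the replicate number as a block, and leaving out each array. Of the 9 measured interleukin-1 genes, Il1a, Il1b, Il1rn, Il18, Il18bp and Il33 kept their direction in each alternative that holds them; Il1a and Il1rap were among those dimmest genes, and without them the median of the remaining members was 0.042. The median change of the 9, -0.033, lay between -0.053 and 0.054 in the fits without 1 array. Genes past the threshold, 1456 with all arrays, ran from 226 to 2133 in those fits, and those of the 13 lists, 25, from 9 to 33; each such fit has 1 array fewer. Same-numbered arrays did not deviate together (r of -0.168, -0.0935 and -0.0812), so the numbers are not taken as pairs; with the replicate block 522 genes and 15 list genes passed. Probe sets near background limit what can be seen of Il1rap, of Il1a in miR-34a samples and of the dim immune genes.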
